A study of Rattus norvegicus with 743 samples.

Results

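The genes that encode the proteasome were followed through the livers of rats given single drugs. The members are the rows of the count table whose gene name starts with Psma, Psmb, Psmc or Psmd and a number and that averaged at least 1 CPM (a count scaled to the library total) over all libraries. They were chosen by gene name and level, without reference to any treatment. Of 40 rows with such a name, 38 passed, out of 32892 gene rows in all. The thymus-specific Psmb11 and the testis-specific Psma8 were under the limit. Of the 38 members, 31 encode constitutive subunits of the 26S proteasome, 3 encode the inducible catalytic subunits (Psmb8, Psmb9, Psmb10) and 3 encode assembly chaperones of the 19S particle (Psmd5, Psmd9, Psmd10). Psmc3ip carries a proteasome-like name but encodes a cofactor of meiotic recombination. The row named Psma3l holds the symbol under which the reference annotation lists Psma3, and reads from near-identical copies could have been divided between such rows.

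The 26S proteasome degrades proteins tagged with ubiquitin. Its 20S core is a stack of alpha rings, which gate entry, and beta rings, in which Psmb5, Psmb6 and Psmb7 carry the peptidase sites. The 19S cap holds a ring of Psmc ATPases that unfolds substrates and Psmd subunits that bind ubiquitin or, in Psmd14, cut it off. In mammalian cells interferon induces Psmb8, Psmb9 and Psmb10, which take the place of the constitutive catalytic subunits and give the immunoproteasome, which makes peptides for antigen presentation. When the proteasome is impaired, the transcription factor NRF1, encoded by Nfe2l1, raises the constitutive subunit genes together through antioxidant response elements, the same kind of element that NRF2 uses in genes against oxidants.

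The series profiled livers of Han Wistar and Sprague Dawley rats by stranded polyA RNA sequencing after daily dosing, with tissue taken a day after the last dose. It holds 743 libraries, those of vehicle animals included. There are 99 treated groups, each set against animals given the same vehicle in the same study and sequencing batch. Of these, 97 comparisons had at least 2 animals in both arms, with 687 animals in all; 31 of them share their vehicle animals with another, in 15 shared vehicle groups. Age was not among the labels used here. Library totals ranged from 0.312 to 45.5 M reads with a median of 18.2 M reads; the lowest total outside the shallow PCN study was 11.2 M reads. The 6 hepatocyte markers, such as albumin, summed to 96777 to 236669.5 CPM over the vehicle animals of the comparisons examined in detail. In bulk liver, fewer cells of a type and less RNA per cell cannot be told apart.

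The treatments described in depth were the 6 with most members called higher and the 6 with most called lower. Almorexant, carbamazepine and NB-360 tied at 33 members higher, and the larger median change of the members decided for almorexant and carbamazepine. The 6 high ones were ritonavir at 400 mg/kg for 4 days (Han Wistar, male, 6 treated and 4 vehicle animals, propylene glycol and ethanol in water), flutamide at 600 mg/kg for 4 days (Han Wistar, male, 4 treated and 4 vehicle animals, methylcellulose in water), azithromycin at 600 mg/kg for 4 days (Sprague Dawley, male, 4 treated and 4 vehicle animals, methylcellulose in water), ticlopidine at 600 mg/kg for 4 days (Han Wistar, male, 4 treated and 4 vehicle animals, water), almorexant at 750 mg/kg for 7 days (Sprague Dawley, female, 4 treated and 4 vehicle animals, PEG 400) and carbamazepine at 600 mg/kg for 4 days (Han Wistar, male, 4 treated and 4 vehicle animals, propylene glycol). The others were sudoxicam at 100 mg/kg for 4 days (Sprague Dawley, male, 3 treated and 4 vehicle animals, methylcellulose in water), naproxen at 400 mg/kg for 4 days (Sprague Dawley, male, 2 treated and 4 vehicle animals, methylcellulose in water), bardoxolone at 10 mg/kg for 4 days (Han Wistar, male and female, 3 treated and 3 vehicle animals, sesame oil), fluoxetine at 400 mg/kg for 4 days (Han Wistar, male, 3 treated and 4 vehicle animals, methylcellulose in water), TCDD at 0.00015 mg/kg for 4 days (Han Wistar, male, 4 treated and 4 vehicle animals, corn oil with acetone) and lumiracoxib at 400 mg/kg for 4 days (Sprague Dawley, male, 3 treated and 4 vehicle animals, methylcellulose in water). Ritonavir is an HIV protease inhibitor, flutamide an androgen receptor blocker, azithromycin a macrolide antibiotic, ticlopidine a platelet inhibitor, almorexant an orexin receptor blocker and carbamazepine an anticonvulsant. Sudoxicam, naproxen and lumiracoxib are non-steroidal anti-inflammatory drugs, bardoxolone activates NRF2, fluoxetine is a serotonin reuptake inhibitor and TCDD (dioxin) activates the aryl hydrocarbon receptor. Naproxen shared its vehicle animals with amoxicillin; the other 11 shared theirs with no other comparison.

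Promoter sequences are shown because both constitutive and inducible subunits rose after some of these drugs, and textbook regulation names the antioxidant response element for the former and the interferon response element for the latter. The patterns do not divide the classes. RefSeq promoters (assembly GRCr8, 250 bases before to 50 after the start) matched 34 of 38 members. The core of the antioxidant response element, TGACNNNGC on either strand, was found in 7 of them (20.6%) and in 12.1% of all 33469 promoters. The members were Psma3l, Psmb2, Psmb5, Psmb6, Psmd1, Psmd3 and Psmd9. A CCAAT box was found in 19 members (55.9%) and in 37.5% of all promoters. The pattern GAAA, any 2 bases, GAAA, the core of interferon response elements, was found in 5 members (Psma4, Psmb3, Psmb8, Psmb10 and Psmd7; 14.7%) and in 3.92% of all promoters. Below are the 100 bases around the element in 3 core subunits (antioxidant element in capitals) and in 2 inducible ones (interferon element in capitals), written 5′ to 3′ in the direction of the gene. A match describes the letters and shows no binding.
Psmb2, chr5:144254944-144255043, plus strand: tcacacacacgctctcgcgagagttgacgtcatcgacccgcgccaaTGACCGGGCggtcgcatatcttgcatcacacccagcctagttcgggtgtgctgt
Psmb5, chr15:32047386-32047485, minus strand: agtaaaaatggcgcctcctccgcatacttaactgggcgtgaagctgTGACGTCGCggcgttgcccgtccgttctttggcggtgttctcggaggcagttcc
Psmb6, chr10:55737818-55737917, plus strand: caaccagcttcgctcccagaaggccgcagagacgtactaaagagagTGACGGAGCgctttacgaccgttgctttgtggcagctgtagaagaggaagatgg
Psmb8, chr20:4656982-4657081, minus strand: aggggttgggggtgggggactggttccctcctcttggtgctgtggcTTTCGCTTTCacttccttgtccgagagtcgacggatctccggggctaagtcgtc
Psmb10, chr19:50743311-50743410, minus strand: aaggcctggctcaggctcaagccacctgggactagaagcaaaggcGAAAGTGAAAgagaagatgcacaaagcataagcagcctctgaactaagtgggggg
The antioxidant element started 68 bases before the start of Psmb2, 60 before that of Psmb5 and 24 before that of Psmb6. The interferon pattern of Psmb8, on the opposite strand, began 4 bases before its start and ran across it. The one shown for Psmb10 began 73 bases before its start.

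In vehicle livers the subunits were expressed at levels of the same order. These are the authors' FPKM values (scaled by gene length and depth, so that genes can be compared), given as the median over 83 vehicle groups with the lowest and highest group mean. The constitutive beta ring was highest, led by Psmb4 at 104 FPKM (54.1 to 156), Psmb7 at 102 FPKM (54.9 to 139.6) and Psmb1 at 94.6 FPKM (51.4 to 134). The peptidase subunit Psmb5 stood at 64.3 FPKM (30.8 to 92.6). In the alpha ring, levels ran from Psma7 at 85.0 FPKM (52.7 to 135) down to Psma3l at 29.2 FPKM (17.1 to 39.7). Among the ATPases, Psmc3 was highest at 66.9 FPKM (20.5 to 118) and Psmc6 lowest at 29.0 FPKM (22.0 to 42.0). The 19S deubiquitinase Psmd14 had the lowest level of the constitutive subunits, 17.2 FPKM (11.0 to 23.7). Among the constitutive subunits, neighbours in the order of medians had overlapping ranges. Among the inducible subunits, Psmb8 stood near Psmd14 at 18.7 FPKM (9.15 to 54.8), and the others had lower medians: Psmb10 at 11.2 FPKM (6.06 to 32.1) and Psmb9 at 9.94 FPKM (4.63 to 29.9). For all 3 the group median was higher in Sprague Dawley than in Han Wistar vehicle rats, as for Psmb8 at 21.8 and 14.3 FPKM; study and batch differ with strain and the difference was not tested. The chaperone Psmd10 stood at 2.72 FPKM (1.54 to 4.16), its highest group below the lowest group of Psmb9. Psma8 and Psmb11, which were not members, had medians of 0.0242 and 0.0103 FPKM.

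Where drug treatment changed the subunit genes, it mostly raised them. Over the 97 comparisons, 550 of 3682 member tests were called higher (14.9%) and 22 lower (0.598%), at an edgeR adjusted p under 0.05. Over all genes, 4.97% of tests were called higher and 4.55% lower. The calls were concentrated: in 15 comparisons at least 50% of the members rose, and those held 450 of the 550 calls (81.8%). In no comparison did 50% of the members fall. In 54 comparisons no member was called by edgeR. A lack of calls does not show a lack of change, because calls also depend on the spread between animals. The constitutive median was 0.77 on the log2 scale after telithromycin with 5 members higher, 0.52 after quinidine with 0, and 0.28 after TCDD with 19. Mean RIN was 6.95 in the quinidine group and 8.075 in its vehicle group, and 1 of the 4 quinidine libraries had a RIN far below the rest. Of all genes, 0.016% were called higher after quinidine. The part of that library in the quinidine values was not tested. With RNA integrity (RIN) as a covariate, the number of comparisons with at least 50% of members higher was 7, and the calls were 309 higher and 10 lower. DESeq2 called 47 member tests lower.

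**Figure D1:**
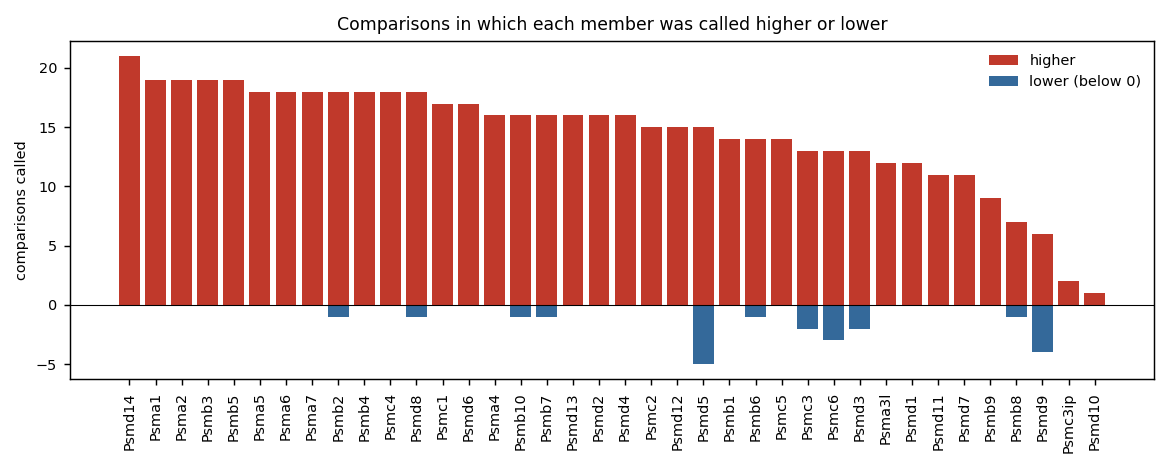
Number of the 97 comparisons (y axis) in which each of the 38 members (x axis) was called higher (bars above 0) or lower (bars below 0) at an edgeR adjusted p under 0.05. Psmd14 was called higher in 21 comparisons, and Psmd5 and Psmd9 have the most lower calls, 5 and 4.

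The 4 classes of constitutive subunits had similar shares of higher calls, while members within a class varied. The alpha ring was called higher in 17.7% of its tests and lower in none of 679. The constitutive beta ring was called higher in 17.4%, the ATPases in 15.5% and the non-ATPase subunits in 15.6%. Psmd14 rose in 21 comparisons, more than any other member, and the lid subunit Psmd7, of the same class, in 11. Psma1, Psma2, Psmb3 and Psmb5 rose in 19 each and fell in none. The inducible subunits were called higher in 11.1% of their tests: Psmb10 in 16 of 96 comparisons, Psmb9 in 9 of 96 and Psmb8 in 7 of 97. Assembly chaperones differed among themselves. Psmd5 rose in 15 and fell in 5, Psmd9, which helps assemble the ATPase base, rose in 6 and fell in 4, and Psmd10 (gankyrin) rose in 1. Psmc3ip rose in 2 of 96.

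Ritonavir raised more members than any other treatment of the 97. All 31 constitutive subunits and all 3 inducible ones rose, and 36 of 38 members in all, against 22.7% of all genes called higher and 19% called lower. The exceptions were Psmd9 (log2 fold change 0.24) and Psmc3ip (0.17). Summed over the 31 constitutive subunits, the level was 2393 to 2550.1 CPM in the 4 vehicle animals and 6387 to 6996 CPM in the 6 treated ones, so the groups were far apart and the ratio of means was 2.70. CPM here are scaled by edgeR's TMM factors. Psmb3, a structural beta subunit, had 49.5, 48.8, 52.8 and 55.6 CPM with vehicle, and the 6 treated animals had a lowest, median and highest of 236, 269.9 and 296 CPM (log2 fold change 2.38 ± 0.09 SE, edgeR adjusted p = 1.94e-08). The ATPase Psmc4 rose by 2.11 on the log2 scale, Psmd14 by 1.98 and the alpha subunit Psma2 by 1.88. Psmb5 rose 3.11-fold (log2 fold change 1.64 ± 0.09 SE, edgeR adjusted p = 7.53e-08). The median of the constitutive members was 1.47, while that of all genes was 0.01. RIN was 8.33 in treated and 8.35 in vehicle animals, and with RIN as a covariate 36 members were called higher. Hepatocyte markers moved beside it: 2 of 6 higher and 3 lower, summed level 164240.3 to 204328 CPM with vehicle and 97195 to 135661 CPM treated. Their part in the result was not tested.

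**Figure D2:**
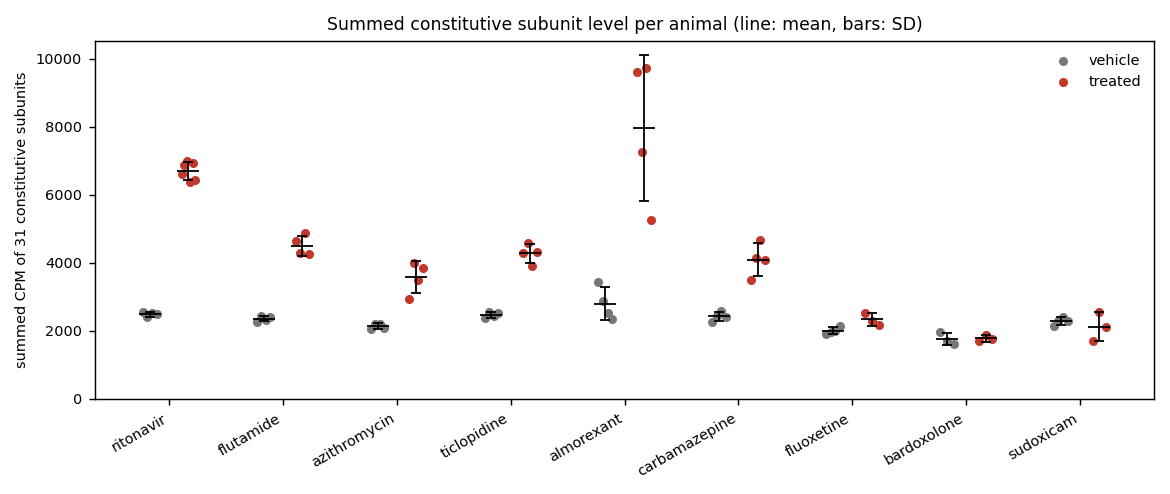
Summed CPM of the 31 constitutive subunits (y axis, linear from 0) in each vehicle (grey) and treated (red) animal of 9 treatments (x axis), with the mean as a line and the SD as bars. Ritonavir animals lie at 6387 to 6996 CPM against 2393 to 2550.1 CPM with vehicle, while bardoxolone and sudoxicam animals overlap their vehicle animals.

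After flutamide, ticlopidine and carbamazepine the constitutive subunits rose less. Members called higher were 35 of 38 after flutamide (background 23.4% higher, 24.6% lower), 34 after ticlopidine (24.1% and 25.1%) and 33 after carbamazepine (21.3% and 19.4%). Medians of the constitutive members were 0.95, 0.82 and 0.76 on the log2 scale, against all-gene medians of -0.02, -0.01 and -0.01. Summed constitutive levels were 2264 to 2433 CPM in the vehicle animals and 4257 to 4865 CPM in the animals given flutamide. For ticlopidine these ranges were 2366 to 2559 and 3914 to 4589 CPM, and for carbamazepine 2265 to 2588 and 3483 to 4663 CPM, with no overlap in any of the 3. After flutamide, Psmd14 had 28.2, 29.4, 25.5 and 31.8 CPM with vehicle and 80.0, 76.3, 91.1 and 73.8 CPM treated (log2 fold change 1.48 ± 0.10 SE, edgeR adjusted p = 6.92e-06). The chaperone Psmd5 rose with it (log2 fold change 1.43 ± 0.09 SE, edgeR adjusted p = 5.14e-06). After ticlopidine the ATPase Psmc4 had 59.7, 61.7, 56.1 and 61.8 CPM with vehicle and 158, 175, 141 and 171 CPM treated, a log2 fold change of 1.43. After carbamazepine Psmc4 also led, with 51.4, 54.7, 59.7 and 52.4 CPM with vehicle and 116, 149, 155 and 134 CPM treated, a log2 fold change of 1.34. In each case the treated animals were all above the vehicle animals. The 1 constitutive subunit not called after carbamazepine was Psma3l (0.34).

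RNA integrity moved with these treatments to different degrees. Mean RIN was 8.93 in treated and 8.28 in vehicle animals after flutamide and 8.83 in treated and 8.45 in vehicle animals after carbamazepine, and with RIN as a covariate the members called higher were 11 and 10. After ticlopidine the number with that covariate was 35. Macrophage markers were lower in all 3, with 0 of 10 higher and 9 lower, summed level 483 to 589 CPM with vehicle and 240.3 to 309.6 CPM treated for flutamide. For ticlopidine they gave 0 of 10 higher and 10 lower, summed level 492 to 607 CPM with vehicle and 222 to 322 CPM treated, and for carbamazepine 0 of 10 higher and 10 lower, summed level 427 to 529 CPM with vehicle and 251 to 327 CPM treated. Of the 6 hepatocyte markers, 4, 5 and 5 were called lower. The part of these markers in the subunit result was not tested.

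Almorexant raised the constitutive subunits about as far as ritonavir but left the inducible ones unraised. All 31 constitutive subunits were among the 33 members called higher (background 18.5% higher, 17.1% lower), with a median log2 fold change of 1.56 against 0.00 for all genes. The summed level was 2349 to 3429.6 CPM with vehicle and 5252 to 9734 CPM treated, a wide spread without overlap. Psmb5 had 87.7, 70.7, 58.3 and 58.9 CPM with vehicle and 289.8, 256, 323 and 144 CPM treated (log2 fold change 1.88 ± 0.27 SE, edgeR adjusted p = 0.00149). Psmb3 changed by 2.22, Psmc4 by 2.08 and the 19S lid subunit Psmd8 by 2.04, all called higher. Among the inducible subunits, Psmb8 changed by -0.48, Psmb9 by 0.34 and Psmb10 by -0.80, none called by edgeR; DESeq2 called Psmb10 lower. Psmb10 had 25.2, 28.8, 15.2 and 29.8 CPM with vehicle and 8.57, 21.1, 16.5 and 10.4 CPM treated, so the groups overlapped. Lymphocyte markers fell in 4 of 4 tested, from 4.28 to 8.50 CPM in sum to 0.177 to 0.999 CPM, and macrophage markers gave 0 of 10 higher and 9 lower, summed level 505 to 731 CPM with vehicle and 91.0 to 214 CPM treated. Their part in the result was not tested. RIN was low here, 7.18 in treated and 6.70 in vehicle animals.

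Azithromycin and fluoxetine raised the inducible subunits most. After azithromycin 35 of 38 members rose (background 24.8% higher, 22.3% lower), and the 3 largest changes were the inducible ones. Psmb9 had 9.78, 8.69, 6.03 and 13.3 CPM with vehicle and 59.9, 69.3, 64.4 and 63.3 CPM treated (log2 fold change 2.77 ± 0.20 SE, edgeR adjusted p = 1.07e-05). Psmb10 had 13.5, 9.68, 9.80 and 15.8 CPM with vehicle and 62.1, 74.3, 69.0 and 75.7 CPM treated (log2 fold change 2.53 ± 0.16 SE, edgeR adjusted p = 5.04e-06), and Psmb8 31.3, 20.9, 18.6 and 32.9 CPM with vehicle and 81.0, 128, 98.7 and 119 CPM treated (log2 fold change 2.04 ± 0.22 SE, edgeR adjusted p = 9.76e-05). No treated animal overlapped a vehicle animal for any of the 3. All 31 constitutive subunits rose as well, by a median of 0.74 on the log2 scale (all genes 0.02), with Psmd14 at 1.46 and Psmb5 at 0.67.

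After fluoxetine the inducible subunits rose as far, while fewer constitutive ones were called higher than after azithromycin and their median change was smaller. Psmb9 had 4.30, 5.13, 5.88 and 4.72 CPM with vehicle and 37.6, 17.0 and 52.5 CPM treated (log2 fold change 2.83 ± 0.35 SE, edgeR adjusted p = 7.47e-04). Psmb10 had 4.90, 6.26, 8.14 and 5.17 CPM with vehicle and 56.6, 28.9 and 40.1 CPM treated (log2 fold change 2.77 ± 0.26 SE, edgeR adjusted p = 2.75e-04). The second treated animal was the lowest treated one for both and still above every vehicle animal. Psmb8 changed by 1.71 and was called higher. Of the constitutive subunits 17 rose and 1 fell, with a median of 0.30 (all genes 0.00); in all, 21 members rose and 2 fell (background 23.7% higher, 23.4% lower). The 2 that fell were Psmd5, with 36.1, 38.0, 38.6 and 38.3 CPM with vehicle and 20.6, 25.6 and 22.8 CPM treated (log2 fold change -0.72), and the ATPase Psmc6 (-0.47). Psmb5 changed by 0.26 and was not called. The fourth largest change, Psmc3ip at 0.84, was not called under DESeq2, without the count filter, in the RefSeq gene table, with RIN as a covariate or without most single animals. Without treated animal 2 the number lower was 4, and with RIN as a covariate it was 1.

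Most antigen presentation genes moved with the inducible subunits after azithromycin and fluoxetine. The 11S activator subunits Psme1 and Psme2, which interferon also raises, changed by 0.69 and 1.28 after azithromycin and by 0.80 and 1.37 after fluoxetine. The peptide transporter gene Tap1 changed by 1.96 and 2.24, and Nlrc5, a regulator of MHC class I genes, by 1.85 and 2.09, all called higher. Of the antigen presentation list 7 of 7 rose after azithromycin and 6 of 7 after fluoxetine, where B2m (-0.01) was not called. Of the interferon-stimulated list 10 and 9 of 10 rose. The largest were Rsad2 (6.84) and Mx2 (4.45). After ritonavir all 10 interferon-stimulated genes rose too, with a median of 2.61. There Tap1 (0.74) and Nlrc5 (1.11) were called higher, while B2m (0.22) and Irf1 (-0.20) were not called. After almorexant 6 of 10 fell and 1 rose, and after carbamazepine 5 fell and 1 rose. Blood cell markers also moved. After fluoxetine the neutrophil list summed to 1.72 to 2.21 CPM with vehicle and 519 to 6772 CPM treated, most of it Lcn2, which hepatocytes also make. After azithromycin it was 1.51 to 6.77 and 17.6 to 43.5 CPM. Lymphocyte markers were not called in either (1.99 to 4.21 CPM in sum with vehicle and 2.21 to 4.67 CPM after azithromycin, with 2 of 11 markers abundant enough to test). The part of these cells in the result was not tested.

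**Figure D3:**
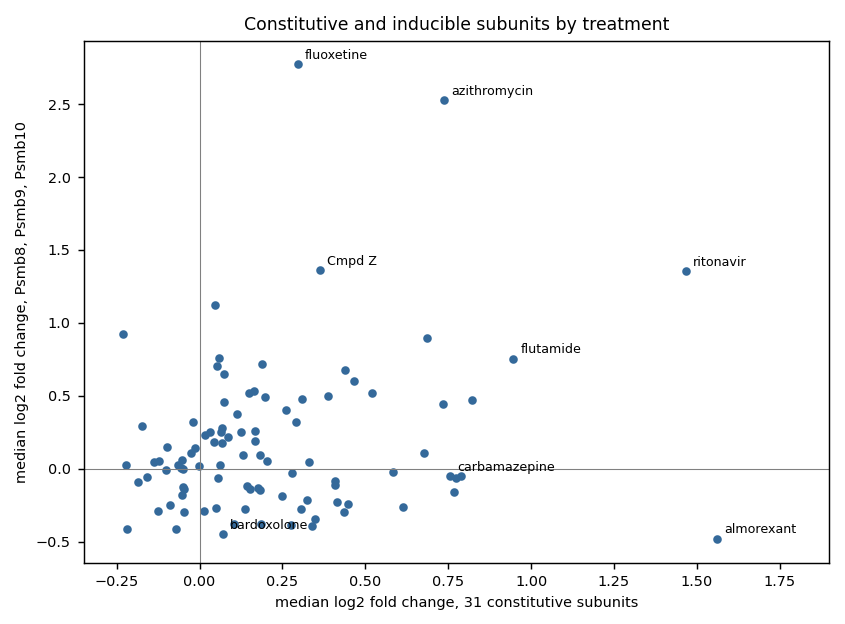
Median log2 fold change of the 31 constitutive subunits (x axis) against that of Psmb8, Psmb9 and Psmb10 (y axis); each point is 1 of 96 comparisons in which all 3 inducible subunits were tested. Fluoxetine (0.30, 2.77) and almorexant (1.56, -0.48) lie at opposite corners.

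The next highest inducible medians followed Cmpd Z (1.36) and ritonavir (1.35). After Cmpd Z, Psmb9 changed by 1.66, Psmb10 by 1.36 and Psmb8 by 1.00, all called higher. Of the antigen presentation list there, Tap1 (1.29), Tapbp (0.96) and Tap2 (0.62), which load peptides onto MHC class I, rose. B2m (-0.50), the MHC class I light chain, fell, and Nlrc5 (0.07), Irf1 (-0.11) and Erap1 (-0.07) were not called. The activator subunits Psme1 (0.82) and Psme2 (1.01) rose, as did 9 of 10 interferon-stimulated genes. The 4 lowest medians followed PCN, where Psmb8 alone was tested (-0.65), almorexant (-0.48), bardoxolone (-0.45) and chloramphenicol (-0.41). No inducible subunit was called by edgeR in those 4. PCN was given at 500 mg/kg for 7 days and chloramphenicol at 600 mg/kg for 4 days. Both had 4 treated and 4 vehicle animals, all male Han Wistar rats. For chloramphenicol 1 vehicle animal stood apart in the summed constitutive level; without it the inducible median was -0.52, and again no member was called. Psmb8 fell after pyrazole (-0.59) and Psmb10 after clofibrate (-0.62). Without the sex covariate no member was called lower after pyrazole. Pyrazole was given at 200 mg/kg to Han Wistar rats of both sexes (3 treated, 3 vehicle). Clofibrate was given at 600 mg/kg to male Sprague Dawley rats (4 treated, 4 vehicle), and both for 4 days.

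A further 7 treatments raised at least 50% of the members, beside the 6 above, fluoxetine and TCDD. Over all comparisons the number at that share was 15, and 7 with RIN as a covariate. The numbers higher with that covariate are not given here for these treatments, fluoxetine or TCDD, so their rises may depend on it. Members called higher were 33 after NB-360 (background 13.8%), 32 after nefazodone (11.1%), 32 after clarithromycin (10.1%), 31 after hydroxyzine (15.1%) and 31 after chlorpropamide (8.3%). Mibefradil gave 26 (8.36%) and Cmpd Z 19 (20.9%). None of the 7 lowered a member. All 7 were given to male Han Wistar rats, at 600 mg/kg for 4 days except NB-360 (750 mg/kg for 5 days) and Cmpd Z (400 mg/kg for 4 days). Hydroxyzine and mibefradil had 3 treated animals and the others 4, each against 4 vehicle animals. Clarithromycin, hydroxyzine and chlorpropamide shared their vehicle animals with other comparisons. Constitutive medians ran from 0.36 after Cmpd Z to 0.79 after nefazodone. The inducible median was near 0 after nefazodone (-0.05) and clarithromycin (-0.06) and above it after mibefradil (0.89) and hydroxyzine (0.68).

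**Figure D4:**
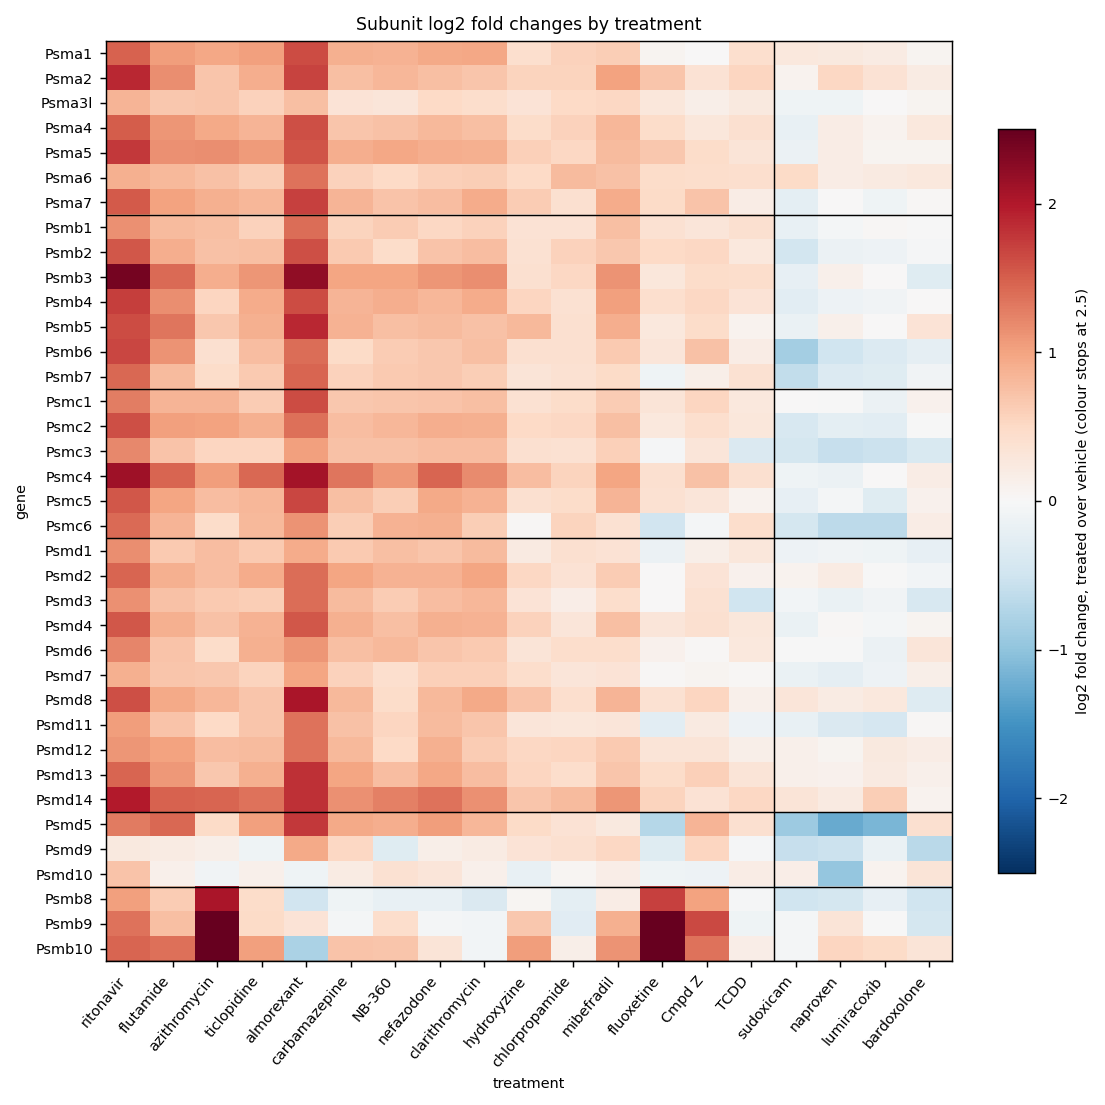
Log2 fold change over vehicle (colour, red higher and blue lower, stopping at 2.5) of 37 subunit and assembly genes (rows, grouped by role) in the 15 treatments with at least 50% of members higher and in 4 with members lower (columns; the vertical line separates them). The constitutive rows are red across the first columns, and the inducible rows stand out after azithromycin and fluoxetine, as for Psmb9 (2.77 and 2.83).

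Several partners of the proteasome rose in the 6 high treatments. Of the 5 activator and inhibitor genes, 5 rose after ritonavir, flutamide, ticlopidine and carbamazepine, 4 after azithromycin and 1 after almorexant. The maturation chaperone Pomp changed by 1.45 after ritonavir and 1.44 after almorexant, both called higher, and by 0.18 after carbamazepine, not called. The proteasome-bound deubiquitinase Usp14 rose in all 6, from 1.02 after carbamazepine to 2.20 after ritonavir. Zfand2a, a heat-shock and arsenite-inducible proteasome regulator, rose in all 6, from 1.88 after azithromycin to 5.41 after almorexant. Nfe2l1 itself was called higher after flutamide (0.48), ticlopidine (0.85), almorexant (1.15) and carbamazepine (0.96), and was not called after ritonavir (0.26) or azithromycin (-0.12). Ddi2, the protease that cuts NRF1 into its active form, fell in 5 of the 6, by most after azithromycin (-1.31), and changed by 0.41 after almorexant, not called. Among genes of the ubiquitin shuttle and p97 list, 12 of 13 rose after ritonavir and 8 after flutamide. Among genes of endoplasmic reticulum degradation, 5 of 8 fell and none rose after azithromycin, and 3 of 8 rose after almorexant.

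Across treatments the constitutive subunits varied as a unit. Over 97 comparisons, each subunit's log2 fold change had a Pearson correlation with the median of the other constitutive subunits of 0.82 (Psmc6) to 0.97 (Psma5). The correlation was 0.75 for Psmd5, 0.54 for Psmd9, 0.26 for Psmd10, 0.31 for Psmb10, 0.24 for Psmb9 and 0.14 for Psmb8. The inducible subunits correlated with each other, Psmb8 with Psmb9 at 0.83, Psmb9 with Psmb10 at 0.78 and Psmb8 with Psmb10 at 0.75, over 96 comparisons. Outside the members, the 6 genes most like the constitutive median among 7239 genes tested in all comparisons were Usp5 (0.95), Cops5 (0.95), Nsfl1c (0.95), Txnl1 (0.93), Usp14 (0.92) and Vcp (0.91). Usp5 and Usp14 are deubiquitinases, Cops5 is the catalytic subunit of the COP9 signalosome, Vcp is the p97 unfoldase, Nsfl1c its cofactor p47, and Txnl1 a thioredoxin-like protein that binds the proteasome. Usp5, Cops5, Nsfl1c and Txnl1 rose in 17 comparisons each. These are descriptions: comparisons share vehicle animals in 15 cases, and genes of 1 comparison share libraries.

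After the anti-inflammatory drugs sudoxicam, naproxen and lumiracoxib a few subunits fell and none rose. Sudoxicam lowered 4 members (background 17.8% of genes lower, 18.6% higher), naproxen 4 (18.4% and 18.8%) and lumiracoxib 2 (8.61% and 10.5%); these counts are below the background share of genes called lower. The chaperone Psmd5 fell in all 3. It had 36.6, 40.4, 37.9 and 40.7 CPM with vehicle and 18.9, 23.3 and 19.6 CPM after sudoxicam (log2 fold change -0.92 ± 0.13 SE, edgeR adjusted p = 0.00108). With naproxen it had 41.8, 41.9, 43.5 and 34.6 CPM with vehicle and 16.2 and 17.5 CPM treated (log2 fold change -1.26 ± 0.15 SE, edgeR adjusted p = 4.76e-04), and with lumiracoxib 43.4, 42.6, 37.4 and 42.0 CPM with vehicle and 21.9, 13.8 and 20.2 CPM treated (log2 fold change -1.15 ± 0.18 SE, edgeR adjusted p = 0.00535). Groups did not overlap in any of the 3. Diclofenac, another drug of the class, also lowered Psmd5 (-0.66), its only member called (background 12.7% of genes lower, 15.6% higher). Fluoxetine, which is not of the class, lowered Psmd5 as well (-0.72). Nabumetone, a further drug of the class, did not pass the threshold for Psmd5 (log2 fold change -0.46 ± 0.15 SE, edgeR adjusted p = 0.124), nor for any other member. Diclofenac was given at 50 mg/kg to 3 animals and nabumetone at 600 mg/kg to 4. Each was given for 4 days to male Sprague Dawley rats, against 4 vehicle animals. Psmc6 fell after naproxen (-0.66) and lumiracoxib (-0.65), Psmc3 (-0.57) and Psmd9 (-0.54) after naproxen. Sudoxicam lowered the beta subunits Psmb6 (-0.84), Psmb7 (-0.61) and Psmb2 (-0.45). Constitutive medians were -0.16, -0.02 and -0.05, against 0.04, 0.01 and 0.02 for all genes.

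Lists of inflammatory cell markers were higher in sum in the same livers. The neutrophil list summed to 2.68 to 7.35 CPM with vehicle and 5391 to 15210.1 CPM after sudoxicam. That list includes Lcn2, which hepatocytes also make, so the sum is no measure of neutrophils alone. S100a8 was up by 5.86 on the log2 scale. The macrophage list gave 8 of 10 higher and 0 lower, summed level 473 to 622 CPM with vehicle and 1142 to 1284 CPM treated for sudoxicam. For naproxen it gave 8 of 10 higher and 1 lower, summed level 479.8 to 794 CPM with vehicle and 1466 to 1568 CPM treated, and for lumiracoxib 8 of 10 higher and 0 lower, summed level 513 to 751 CPM with vehicle and 1121 to 1625 CPM treated. Their part in the lower subunits was not tested. The counts rest on few animals: leaving out single animals gave 2 to 8 members lower after sudoxicam (8 without treated animal 2, 2 without vehicle animal 1, 2 or 3), 2 to 6 after naproxen (6 without treated animal 1, 2 without treated animal 2) and 1 to 4 after lumiracoxib (4 without treated animal 1, 1 without vehicle animal 2 or 4). With RIN as a covariate the counts were 2, 2 and 0.

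Bardoxolone raised NRF2 target genes without raising most subunits. Of the 14 NRF2 targets tested, 11 rose, with a median log2 fold change of 2.32. Gclc, which encodes the catalytic subunit of the limiting enzyme of glutathione synthesis, had 91.9, 119 and 107 CPM with vehicle and 1066, 979 and 779.5 CPM treated (log2 fold change 3.15 ± 0.11 SE, edgeR adjusted p = 5.33e-06). In the same livers 3 members rose and 3 fell (background 15% higher, 13.3% lower), and the summed constitutive level was 1603 to 1955 CPM with vehicle and 1706 to 1886 CPM treated, overlapping. The constitutive median was 0.07 (all genes -0.01). Psmb5 had 34.1, 27.7 and 27.6 CPM with vehicle and 32.0, 37.3 and 45.2 CPM treated, overlapping groups, with sex in the model (log2 fold change 0.35 ± 0.09 SE, edgeR adjusted p = 0.0255), and Psmd5 rose by 0.40. The members that fell were Psmd9 (-0.68), Psmd3 (-0.41) and Psmd8 (-0.32). With RIN as a covariate (mean 8.80 in treated and 7.50 in vehicle animals) Psmb5 changed by -0.018 and no member was called lower; without the sex covariate 1 rose and 1 fell. Leaving out single animals gave 1 to 4 lower, 1 without treated animal 1 or 3 or vehicle animal 1 or 2, 2 without treated animal 2.

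In the 6 high treatments most of both lists rose. The fewest NRF2 targets called higher were 10 of 14, after azithromycin. The NRF2 median was 2.81 after flutamide, 2.67 after ticlopidine, 2.40 after carbamazepine, 2.05 after ritonavir, 1.44 after almorexant and 0.82 after azithromycin. The NRF2 target Nqo1 was called higher in all 6, from 2.12 after almorexant to 5.13 after flutamide, and changed by 3.11 after bardoxolone without passing the threshold. The order of the 2 medians differed: almorexant had the highest constitutive median and flutamide the highest NRF2 median. Bardoxolone was not alone in raising NRF2 targets with few members higher. After methimazole 9 of 13 NRF2 targets rose (median 1.26), with 2 members higher and a constitutive median of 0.18. After pyrazole 9 of 14 rose (median 1.21), with 0 members higher and a constitutive median of 0.10. Pyrazole came from the same study and sequencing batch as bardoxolone, also with both sexes and 3 animals in each arm, so these 2 are not separate cases. Mean RIN with pyrazole was 8.83 in treated and 6.90 in vehicle animals. Methimazole was given at 600 mg/kg for 4 days to 4 male Han Wistar rats, against 4 vehicle animals. The difference between these treatments and the 6 high ones was not tested.

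**Figure D5:**
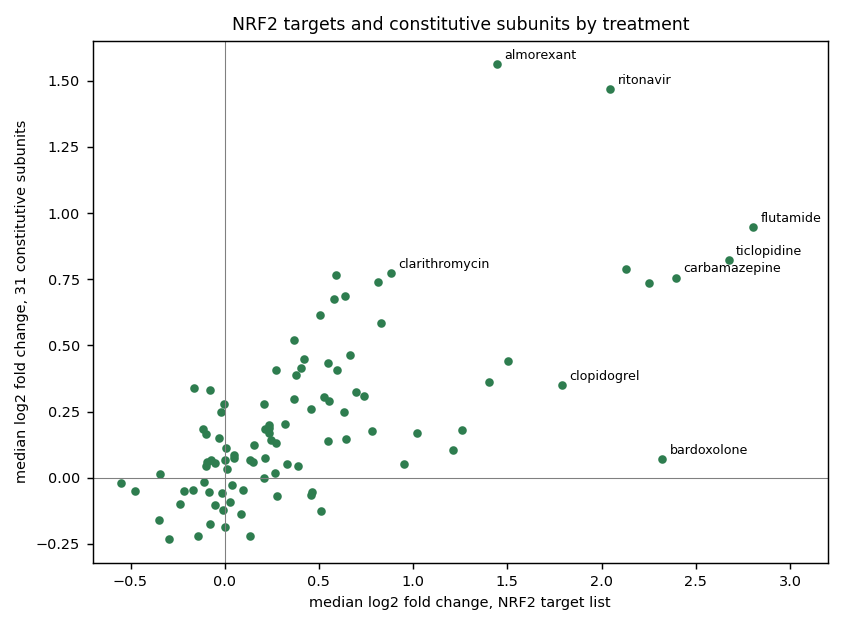
Median log2 fold change of the NRF2 target list (x axis) against that of the 31 constitutive subunits (y axis); each point is 1 of 97 comparisons. Bardoxolone (2.32, 0.07) lies near the x axis, while ritonavir (2.05, 1.47) and almorexant (1.44, 1.56) lie highest.

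TCDD gave a small rise in many subunits and a fall in a pair of them. It raised 19 members and lowered 2 (background 8.79% higher, 12.1% lower), with a constitutive median of 0.28 (all genes 0.00). Psma2 had 33.5, 28.5, 31.3 and 30.2 CPM with vehicle and 46.7, 45.3, 44.5 and 43.2 CPM treated (log2 fold change 0.54 ± 0.07 SE, edgeR adjusted p = 7.47e-04). The 19S lid subunit Psmd3 had 46.6, 45.2, 36.8 and 41.1 CPM with vehicle and 26.8, 29.0, 31.2 and 32.9 CPM treated (log2 fold change -0.50 ± 0.10 SE, edgeR adjusted p = 0.00505), and Psmc3 changed by -0.37; those 2 fell. Groups did not overlap for Psma2 or Psmd3. Psmd14 rose by 0.52 and Psmc6 by 0.45, and no inducible subunit was called. Mean RIN was 9.20 in treated and 7.88 in vehicle animals, and with RIN as a covariate no member was called lower; without treated animal 1, 2 or 3 or vehicle animal 1, 2 or 4 the number lower was 1.

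Matched treatments allow some values side by side. The macrolides azithromycin, clarithromycin, erythromycin and telithromycin were all given at 600 mg/kg for 4 days, in methylcellulose. Azithromycin and telithromycin were given to Sprague Dawley rats in separate studies, and clarithromycin and erythromycin to Han Wistar rats of 1 study with the same vehicle animals. Summed constitutive levels were 2189 to 2594 CPM in those vehicle animals, 3844 to 4702 CPM after clarithromycin and 2005 to 2351 CPM after erythromycin; edgeR called 32 members higher after clarithromycin and none after erythromycin. Clarithromycin is erythromycin with a methyl group on a ring hydroxyl. For azithromycin the constitutive and inducible medians were 0.74 and 2.53, for clarithromycin 0.77 and -0.06, for erythromycin -0.06 and 0.01, and for telithromycin 0.77 and -0.16, where 5 members rose. These 4 were set together after their values were seen, so the differences are a description and were not tested. Phenobarbital at 100 mg/kg was given to Han Wistar rats for 7 days and to Sprague Dawley rats for 17 days, in different cellulose vehicles. The groups held 5 treated and 5 vehicle Han Wistar rats, but only 2 treated and 3 vehicle Sprague Dawley rats, so the test had little power. The effect of phenobarbital on members differed between the strains by a median of -0.17 on the log2 scale (range -0.50 to 0.26), and for Psmb5 by -0.10 ± 0.15 (SE). No member was called by edgeR in that test, 3 had an unadjusted p under 0.05, and DESeq2 called none. For MK-3207 at 750 against 600 mg/kg the members differed by -0.28 to 0.22, Psmb5 by 0.04 ± 0.16 (SE). Neither edgeR nor DESeq2 called a member, and 0 had an unadjusted p under 0.05 with edgeR.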

How the data were processed

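Liver RNA was sequenced with a stranded polyA kit, per the labels' protocols, and the submitters' processing notes name the genome build Rnor_6.0. The aligner, counter and use of strand were not given in the sources used here. The authors deposited estimated counts per gene (expected counts, mostly whole numbers) and FPKM values; FPKM of the vehicle libraries served only for levels. Counts were rounded and libraries of the same animal summed; the row that sums the Ugt1a locus was left out. Each treated group was compared with its vehicle group with edgeR 4.0.16 (R 4.3.3): filterByExpr, TMM, robust quasi-likelihood F test, 2-sided, Benjamini-Hochberg adjustment over all genes tested, threshold 0.05. Sex was a covariate for bardoxolone and pyrazole. Lapatinib batch 10 repeats animals of batch 1, and almorexant batch 2 has 1 vehicle animal; neither was a main comparison. Doses are as labelled, in the unit mkd, read here as mg/kg per day. The labels call the animals of a group separate animals, and p-values measure the spread between them. Alternatives were RLE scaling, DESeq2 1.42.0, no count filter, the RefSeq counts, RIN as a covariate, 1 library per animal, leaving out animals, and leaving out libraries of RIN under 7. The code was tested on counts simulated around the flutamide vehicle means. It called 17 of 100 genes changed by 0.5 on the log2 scale and 79 of 100 changed by 1. Of the unchanged genes, 0.066% were called. Changes near 0.5 were thus mostly missed in that simulation. Named genes were every member for tallies, and in each described comparison the 4 members of largest called change, up to 2 called the other way, Psmb5, Psmb8, Psmb9, Psmb10, Nfe2l1, Pomp, Psme1, Psme2, Nqo1, Tap1, up to 2 called genes of largest change per other list, and the 6 genes most like the constitutive median. Gclc, and Ddi2, Irf1, Nlrc5, Usp14 and Zfand2a where they did not lead their list, and the antigen presentation genes given for Cmpd Z, were chosen after their values were seen. The members and lists were chosen with earlier results of these data known.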

Additional observations from a re-analysis of the deposited data

Results flagged for a closer look

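Almorexant libraries of sequencing batch 2, from 3 treated animals and 1 vehicle animal, entered no test. All 4 carry animal numbers that also occur in batch 10, so they measure animals of the main comparison again and are no independent set. The summed constitutive subunit level was 8984, 7256 and 7649 CPM in the treated animals and 2266 CPM in the vehicle animal, here as CPM of the raw library total without TMM scaling; it was singled out as a signal above the vehicle level in libraries that no comparison used. Psmb8, Psmb9 and Psmb10 summed to 29.7, 84.6 and 63.4 CPM in the treated animals and 112 CPM in the vehicle animal. That 1 animal is vehicle animal 4 of batch 10. There it had the highest inducible sum (109 CPM) and the lowest constitutive sum (2349 CPM) of the vehicle animals. In batch 10, with TMM scaling, the inducible sums overlapped, at 45.1 to 88.0 CPM treated and 54.5 to 109 CPM with vehicle. A fall of the inducible subunits cannot be read from the batch 2 libraries. RIN was 8.30, 8.40 and 8.70 in the treated animals and 8.60 in the vehicle animal. In the 37 groups of 4 to 6 animals whose summed levels are used here, the constitutive and the inducible sum were each screened for 1 animal far from the rest, 74 screens in all, of which chance picks about 1 in 20. The 1 animal picked was vehicle animal 1 of chloramphenicol, whose constitutive sum was 3131 CPM against 2246, 2274 and 2267 CPM in the other 3. The constitutive median after chloramphenicol was -0.22 with it and -0.07 without it, an alternative chosen after seeing the data. No member was called by edgeR either way, and among members the number at an unadjusted p under 0.05 was 9 with it and 9 without it. Trovafloxacin was set against the same vehicle animals (constitutive median -0.18) and was not fitted again without that animal.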

How the results depend on the processing

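RLE scaling, the count filter, the RefSeq gene table and 1 library per animal left every count of called members within 1.5 times its main value. RLE scaling moved the median of all genes by at most 0.03 on the log2 scale. DESeq2 gave 47 member tests lower in place of 22 and 4 members lower after lumiracoxib in place of 2. RIN as a covariate changed most: 309 member tests higher and 10 lower, 7 comparisons with at least 50% of members higher, 11 members higher after flutamide and 10 after carbamazepine, and 2, 2, 0, 1, 0 and 0 lower after sudoxicam, naproxen, bardoxolone, fluoxetine, TCDD and lumiracoxib. Psmb5 after bardoxolone turned from 0.35 to -0.018 with it, and 20 named members lost their call; the cause was not tested. With libraries of RIN under 7 left out, 2 members fell after sudoxicam; for almorexant too few animals remained and it was not run. Without sex as a covariate, 1 rose and 1 fell after bardoxolone and 0 fell after pyrazole. Leaving out each animal in turn kept the number higher at 36 to 37 after ritonavir, 35 to 36 after flutamide, 34 to 35 after azithromycin, 34 to 35 after ticlopidine, 32 to 33 after almorexant and 33 to 34 after carbamazepine. The number lower ranged over 2 to 8 after sudoxicam, 2 to 6 after naproxen, 1 to 4 after bardoxolone, 2 to 4 after fluoxetine, 1 to 2 after TCDD and 1 to 4 after lumiracoxib. No paired analysis was possible because treated and vehicle animals are different animals, numbered only in accession order.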
